A study of Sus scrofa with 12 samples.

Results

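The genes described here carry out or restrain apoptosis, the programmed death of single cells, and with it follicular atresia, the loss of ovarian follicles before ovulation. A list of 42 gene symbols covered death ligands and receptors, the BCL2 family, caspases and mitochondrial death factors. It also covered inhibitors of apoptosis and genes of the p53 axis and stress. A listed gene entered when a locus of the deposited table bore exactly its symbol and had a mean of at least 0.5 FPKM (fragments scaled by transcript length and library size) over 12 libraries. Where several loci bore a symbol, the one with the highest mean count stood for it. Of the 42 genes, 30 had a locus of their own name and 26 passed the minimum, out of 20421 loci that passed it among 29150 in the table. CASP2, BBC3 and XIAP stood on loci that carry only an Ensembl identifier, and are given beside the 26, which makes 29 genes. That step was added after the data were seen.

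The other 13 genes have no test of their own. FAS, PMAIP1, FASLG and BCL2L1 had a locus below the minimum. CASP6, BAX, MCL1, RIPK3 and BIRC3 lay only in loci that join them to a neighbouring gene. BCL2, BIK, BCL2L2 and BIRC2 had no locus of their name. At the threshold, CASP8 (0.768 FPKM) and RIPK1 (1.26 FPKM) lay just inside and FAS (0.474 FPKM) just outside.

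RNA came from left ovaries of French Yorkshire gilts, young female pigs (Sus scrofa), with no transgene or drug treatment named in the labels. The ES group held 6 gilts recorded with repeated estrus and killed in the third, and the NES group held 6 full sisters in which no estrus was seen. Estrus was watched for from 165 days of age, and no age at slaughter was given. The comparison asks how the ovary at estrus differs from that of a sister in which no estrus was seen. Stage of cycle and cycling history therefore cannot be told apart. Each library was made from a separate gilt, so the p-values measure the spread between animals. The main test did not pair sisters across the groups, because no label says that the title numbers mark litters.

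Apoptosis starts along one of a pair of routes. In the extrinsic route a ligand binds a death receptor, which gathers the adaptor FADD and activates caspase 8. In the intrinsic route BH3-only proteins of the BCL2 family release BAX and BAK1, cytochrome c leaves the mitochondria, and APAF1 assembles with it to activate caspase 9. Most follicles in a mammalian ovary are lost by atresia, in which granulosa cells die by apoptosis and macrophages take part in clearing them.

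Libraries held 58140547 to 68961955 counts, and levels are given as CPM, counts scaled to library size with edgeR's TMM factors. A count of 0 allows a level of up to 0.0430 to 0.0519 CPM, depending on the library and for counting error only. The 2 groups differed by a called change at 31 loci higher in ES (0.152% of those tested) and 162 lower (0.793%), by the quasi-likelihood test of edgeR, adjusted after Benjamini and Hochberg over all loci tested. Individual libraries stood apart in cell type markers. ES3 had the highest level of 12 libraries for 12 of 12 macrophage markers with a locus (13 listed), which summed to 1133 CPM there, 82.1 to 132 CPM in the other ES libraries and 62.1 to 167 CPM in NES. MARCO, one of these markers, was at 0 in some libraries. ES3 also had the lowest ES sums of granulosa markers (398 CPM, against 1070 to 3431 in NES) and of steroid cell markers (256 CPM). ES6 had the highest level for 7 of 7 epithelial markers with a locus (8 listed), which summed to 248 CPM, against at most 17.6 CPM in the other ES libraries and 3.63 to 18.3 CPM in NES. Granulosa markers had their highest sum in ES1, 4973 CPM, of which INHA alone gave 3553 CPM. Their median log2 difference was -0.95, with 1 of 8 tested markers called lower (IHH, -3.01, edgeR adjusted p = 0.0420). Differences were positive for INHA (1.51), CYP19A1 (1.43) and INHBA (0.16), and negative for FSHR, INHBB, FST, FOXL2 and IHH. The median of the granulosa sums was 1461 CPM in ES and 1442 CPM in NES. Lymphocyte markers summed to 47.5 CPM in ES3, at most 29.1 CPM in the other ES libraries and 9.37 to 16.7 CPM in NES. The ranges of the summed levels overlapped between ES and NES in each of the macrophage, lymphocyte, granulosa, steroid cell and epithelial lists.

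None of the 26 genes with a named locus passed the test in either direction, and among the 29 the only call was CASP2, which fell in ES. In whole ovaries fewer cells of a type and less RNA per cell cannot be told apart. Unadjusted p-values under 0.05 were found for 3 of the 26 genes, TNFSF10, TNFRSF1B and TP53INP1, each with a positive difference, against 16.3% of all loci tested. DESeq2 called 0 of the 25 that it gave an adjusted p (TNFRSF21 had none), against 5.17% of all loci. Limma on log2(FPKM + 0.5) called 0 of 26, against 1.62% of all loci. With the 3 genes found by identifier included, each of these tools called 1 of them, CASP2. The 2 groups were fully separated, without overlap in CPM, for 0 of the 29 genes, against 0.509% of loci higher in ES and 0.906% lower.

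Most differences were positive, that is, to the ES side. Of the 26 genes, 20 (76.9%) had a positive log2 difference, against 56.2% of all loci, and the median was 0.21 against 0.04 over all loci. These 26 include partial loci of CFLAR, RIPK1 and BAK1 opposite a joined locus, and a BCL2A1 locus outside the RefSeq gene. Without ES3 the median of the 26 was 0.078, and that of all loci 0.021. ES3 was the highest of the 12 libraries for 15 of the 26 genes (57.7%), against 19.7% of all loci. The spread among ES libraries exceeded that among NES libraries for 23 of the 26 genes (88.5%), against 74.6% of all loci. In the map of levels by library, which includes the genes found by identifier, the high values of ES3 did not run through all role groups. ES3 was the highest library for 5 of 7 death ligands, receptors and adaptors, and for 5 of 7 death-promoting BCL2 family genes. Among the caspases and apoptosome genes it was the highest for 2 of 4. CASP8 was highest in ES6, and CASP2 in ES3, at 42.4 CPM, lay below the lowest NES library, at 48.9 CPM.

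**Figure D1:**
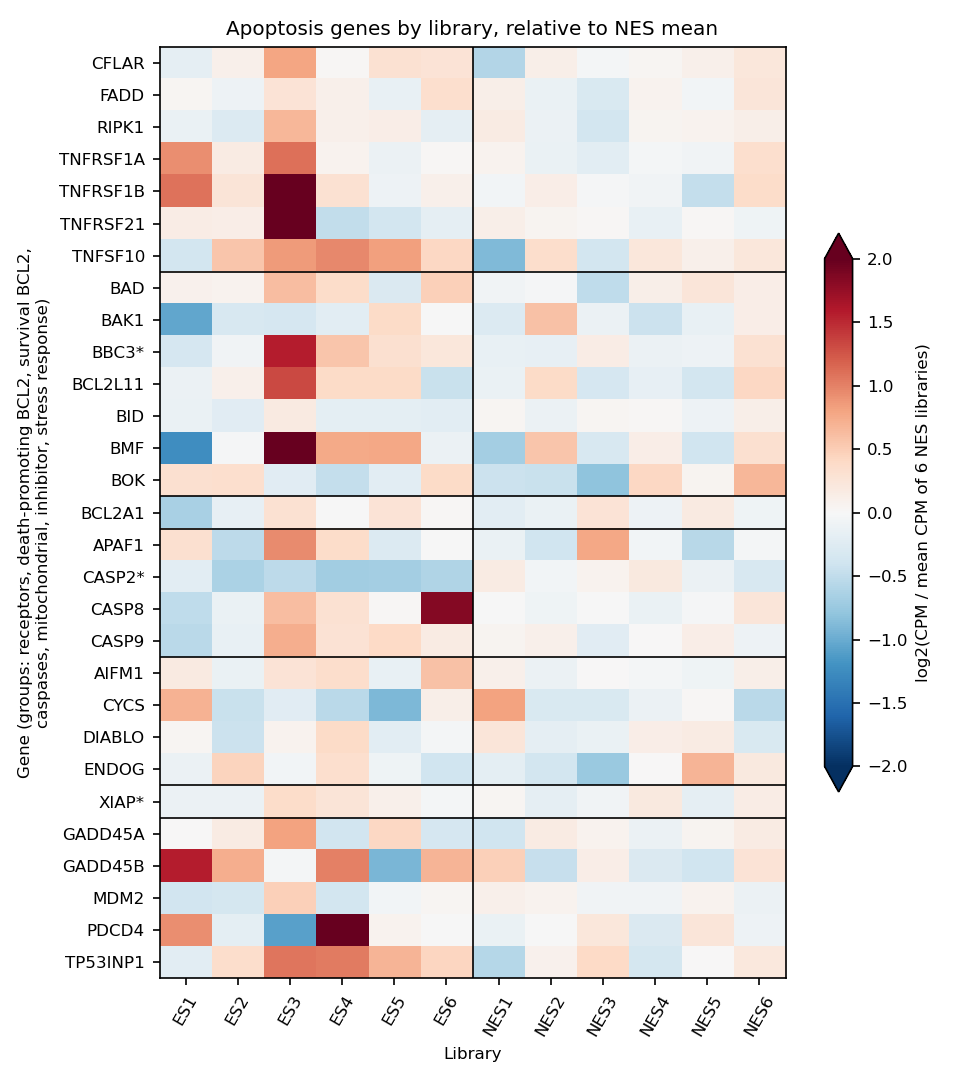
Levels of 29 apoptosis genes in each library, as log2 of CPM over the mean CPM of the 6 NES libraries, with lines between role groups. The color scale ends at 2, and an asterisk marks genes found by Ensembl identifier only. ES3 has the highest level for 17 of the 29 genes, CASP8 is highest in ES6 and PDCD4 in ES4.

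**Figure D2:**
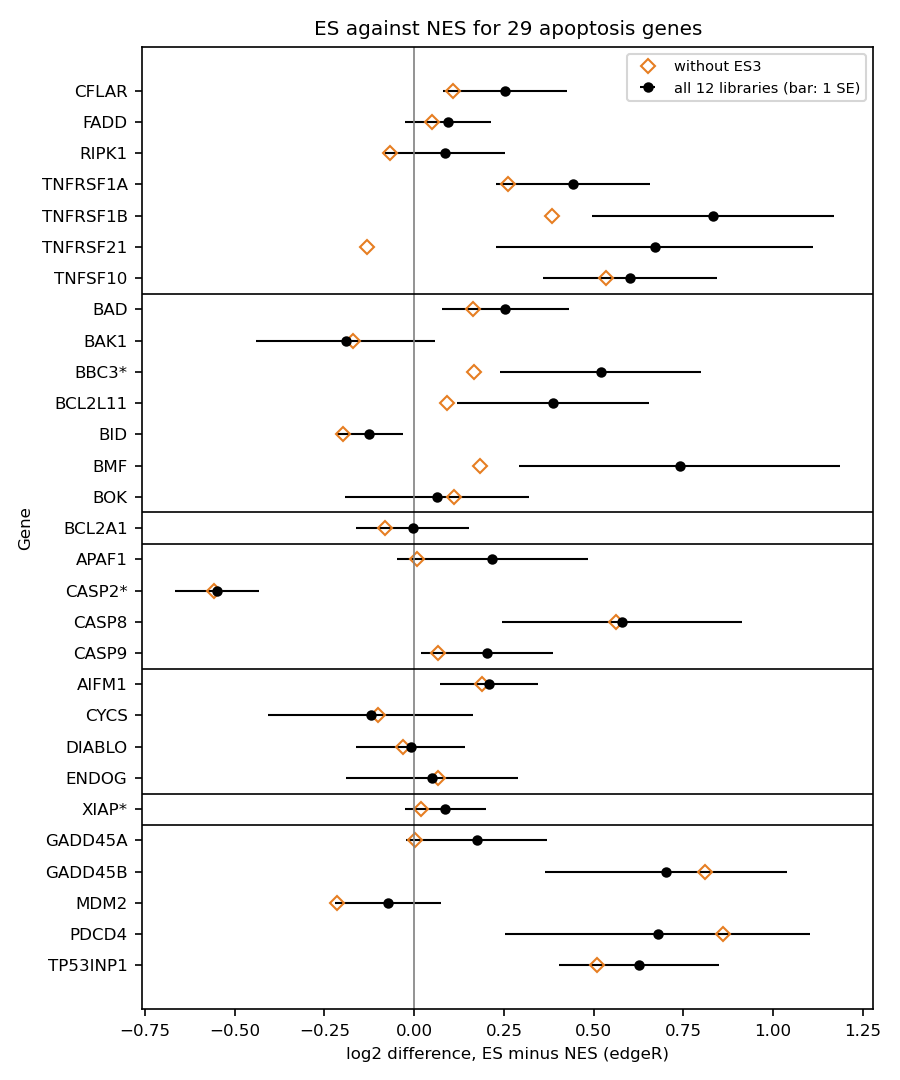
Log2 difference of ES minus NES for the 29 genes (points, edgeR) with 1 SE as the bar, and the same difference without ES3 (diamonds). CASP2 at -0.55 is the only called gene, and TNFRSF21 moves from 0.67 to -0.13 when ES3 is left out.

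Among the caspases and apoptosome genes, CASP2 was called and CASP8, CASP9 and APAF1 were not. CASP2 encodes an initiator caspase, known for a part in the death of oocytes. It was the second most abundant of the 29 genes per length, after PDCD4, with a mean of 10.3 FPKM. Its locus (chromosome 18, 6946435 to 6966047, Sscrofa11.1) covers 99.8% of the RefSeq gene, exons and introns together, and no other locus overlaps it. The ES libraries ranged from 37.7 CPM in ES4 to 52.9 CPM in ES1 with a median of 39.6, and the NES libraries from 48.9 CPM in NES6 to 69.8 CPM in NES4 with a median of 61.2. In CPM, 5 of the 6 ES libraries lay below every NES library, and ES1 alone lay above NES6. Means were 41.7 ± 5.71 CPM in the ES ovaries against 61.0 ± 7.97 in those of NES gilts (SD, n = 6 each). The log2 difference was -0.55 ± 0.12 (SE, edgeR adjusted p = 0.0487).

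The call for CASP2 sat close to the threshold. It was lost without ES2, ES3, ES4, ES5, ES6, NES1, NES2, NES3, NES4 or NES5, each left out in turn, while the difference stayed between -0.63 and -0.51. Of 22 other fits 9 called it, with edgeR, DESeq2 or limma adjusted p from 0.00125 to 0.126. In the deposited FPKM, which carry no TMM factor, CASP2 ranged from 7.32 to 9.32 in ES and from 10.1 to 14.5 in NES, with no overlap. How many of all loci show no overlap in FPKM was not counted. On that scale the levels were 8.04 ± 0.706 FPKM in the ES ovaries against 12.6 ± 1.64 in those of NES gilts (SD, n = 6 each).

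CASP8, the initiator caspase that death receptors activate, was the least abundant of the 29 genes, at 0.768 FPKM. ES libraries held 3.75 CPM in ES1, a median of 6.00 and 18.9 CPM in ES6, and NES libraries 4.88 to 6.28 CPM with a median of 5.25. ES6, the library with the high sum of epithelial markers, stood far above the other ES libraries, of which the next held 8.21 CPM. The log2 difference was 0.58 ± 0.33 (edgeR adjusted p = 0.414), and 0.11 without ES6. The part of epithelial cells in it was not tested. A locus of ALS2CR12 on the other strand overlaps CASP8, so the reads of both could be shared. A further locus named CASP8 covers 1% of the RefSeq gene, with a mean of 24.7 counts and 1.23 FPKM.

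CASP9, the caspase activated on the apoptosome, ranged from 7.16 CPM in ES1 over a median of 12.2 to 17.2 CPM in ES3, and from 8.90 to 11.4 CPM in NES with a median of 10.6. The NES range lay wholly inside the ES range. Its difference was 0.20 ± 0.18 (edgeR adjusted p = 0.620), 0.07 without ES3 and 0.31 without ES1. APAF1, the scaffold of the apoptosome, ran from 87.6 to 242 CPM in ES (median 141) and from 86.0 to 216 CPM in NES (median 118). Its 2 highest values were ES3 and NES3, 1 in each group. The difference was 0.22 ± 0.27 (edgeR adjusted p = 0.732), and ranged with each library left out from 0.01 without ES3 to 0.44 without NES3. The joined locus of CASP6, an executioner caspase, and PLA2G12A gave 0.13 ± 0.14 (edgeR adjusted p = 0.687), a value that cannot be given to one of those genes.

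**Figure D3:**
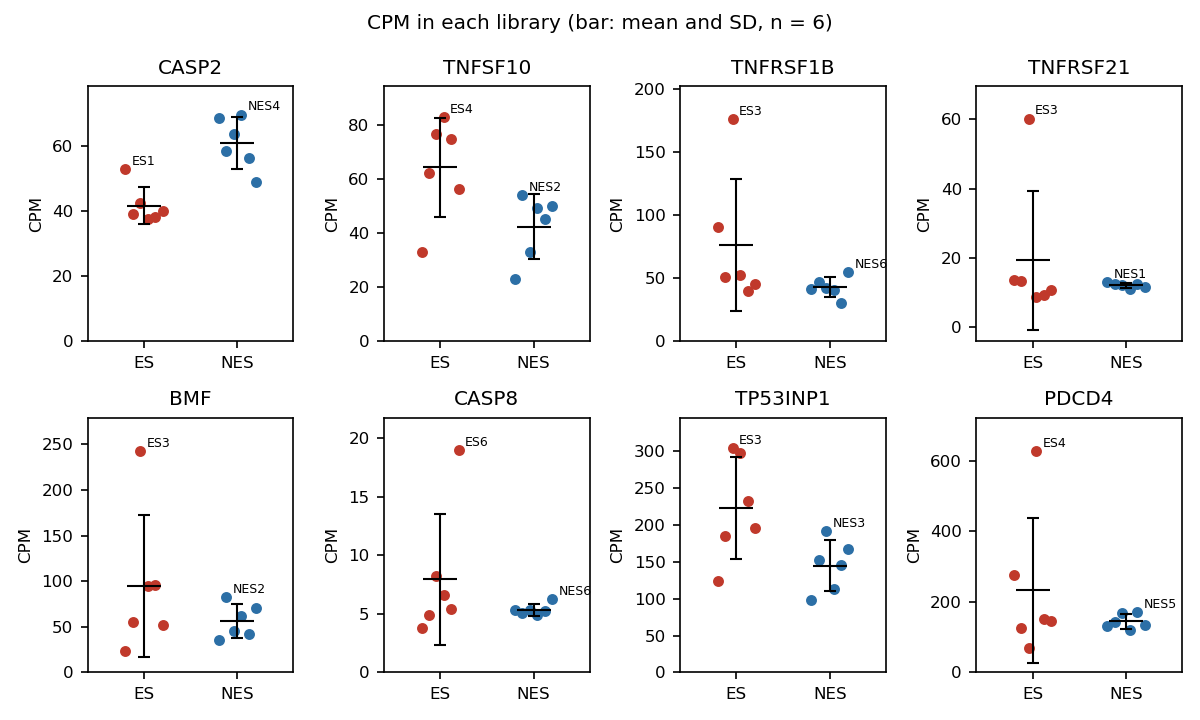
CPM of 8 apoptosis genes in each library, with the highest library of each group named. Bars are the mean and SD of 6 libraries. CASP2 has 5 of 6 ES points below all NES points, while 1 library sets the ES mean of TNFRSF21 (ES3), BMF (ES3), CASP8 (ES6) and PDCD4 (ES4) apart from the other points.

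Of the death ligands, receptors and adaptors, all 7 that were tested had a positive difference, against 56.2% of all loci, and none was called. Their median was 0.44, and 0.11 without ES3, against 0.04 and 0.021 over all loci. Without ES3, 5 of the 7 (71.4%) had a positive difference, against 53.5% of all loci. The named loci of CFLAR and RIPK1 each cover only part of the gene, opposite a joined locus. TNFSF10 encodes TRAIL, a death ligand. It held 32.8 CPM in ES1, a median of 68.4 and 82.8 CPM in ES4, against 22.9 CPM in NES1, a median of 47.3 and 54.0 CPM in NES2. The other five ES libraries all exceeded the highest NES library, and ES1 lay within the NES range. The log2 difference was 0.60 ± 0.24 (edgeR adjusted p = 0.247), 0.54 without ES3, and thus changed little with that library.

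The TNF receptors followed another pattern. TNFRSF1B, the TNF receptor found mostly on immune and endothelial cells, ranged from 39.6 CPM to 176 CPM in ES (median 51.7) and from 30.4 to 54.9 CPM in NES (median 41.4). ES3 held the 176 CPM and ES1 the next, 90.2 CPM, while the other four ES libraries lay inside the NES range. The difference was 0.83 ± 0.34 (edgeR adjusted p = 0.249), and 0.38 without ES3. TNFRSF1A, the TNF receptor with a death domain, ran from 43.6 to 101 CPM in ES (median 51.4) and from 40.8 to 59.6 CPM in NES (median 45.5). Again ES3 was the highest, with ES1 next at 90.6 CPM. The difference of 0.44 ± 0.21 (edgeR adjusted p = 0.332) was 0.26 without ES3 and 0.32 without ES1.

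TNFRSF21, death receptor 6, was chosen for description after its values were seen. Of the ES libraries 5 lay between 8.62 and 13.5 CPM and ES3 at 60.2 CPM, while all NES libraries lay between 10.9 and 13.1 CPM. Its difference of 0.67 ± 0.44 (edgeR adjusted p = 0.483) became -0.13 without ES3. In ES3 the macrophage markers were the highest of 12 libraries too, and their part in the values of these receptors was not tested.

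FADD, the adaptor of the death receptors, had similar levels, 35.4 ± 4.81 CPM in the ES ovaries against 33.2 ± 4.46 in those of NES gilts (SD, n = 6 each), with a difference of 0.09 ± 0.12. CFLAR encodes c-FLIP, which blocks caspase 8, and its named locus gave 0.25 ± 0.17 (0.11 without ES3, 0.16 without NES1). That locus covers only 24.3% of the RefSeq gene and lies on the other strand from a joined locus of CFLAR and CASP10, which covers 99.4% of it. The joined locus held 150 ± 59.5 CPM in the ES ovaries against 107 ± 13.4 in those of NES gilts (SD, n = 6 each). Its difference was 0.49 ± 0.20 (edgeR adjusted p = 0.253), and 0.23 without ES3. CFLAR, CASP10 and CASP8 are neighbours on chromosome 15, between 104769081 and 104951747.

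RIPK1, a kinase that passes TNF receptor signals on to survival or death, gave 0.09 on its named locus, which covers 13.9% of the RefSeq gene. The joined locus that spans RIPK1, on the other strand, gave 0.09 ± 0.10. RIPK3, the kinase of necroptosis, is joined to ADCY4, and that locus gave 0.45 ± 0.19 (edgeR adjusted p = 0.265). Without ES1, the highest library of that locus, the difference was 0.30. FAS and FASLG, the classic receptor and ligand of granulosa cell death, were too low for the test. FAS held 2.08 to 5.18 CPM in ES (median 3.36) and 1.23 to 4.28 CPM in NES (median 2.26), and FASLG at most 0.928 CPM. Both ranges overlapped between the groups.

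Of the death-promoting BCL2 family genes, 7 were tested and none was called. A positive difference was found for 5 (71.4%), against 56.2% of all loci. The median of the 7 was 0.25, and 0.11 without ES3, against 0.04 and 0.021 over all loci. The BH3-only genes showed the same high library. BMF, which senses loss of cell attachment, ran from 23.9 CPM in ES1 over a median of 75.4 to 243 CPM in ES3, and in NES from 35.1 to 82.9 CPM with a median of 53.6. BCL2L11, which encodes BIM, ran from 36.9 CPM to 126 CPM in ES3 (median 59.8), and from 38.9 to 66.8 CPM in NES (median 45.2). BBC3, which encodes PUMA, ran from 2.70 CPM to 10.1 CPM in ES3 (median 4.12), and from 3.04 to 4.20 CPM in NES (median 3.16).

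For each of these 3 genes the 6 ES values spanned the whole NES range. Differences were 0.74 ± 0.45 for BMF (edgeR adjusted p = 0.437), 0.39 ± 0.27 for BCL2L11 (0.505) and 0.52 ± 0.28 for BBC3 (0.383). Without ES3 they were 0.18, 0.09 and 0.17 in that order. PMAIP1, which encodes NOXA, lay below the FPKM minimum, with 0.673 to 3.06 CPM in ES and 0.414 to 1.30 CPM in NES.

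BID links the receptor route to the mitochondria once caspase 8 cuts it, and was chosen for description after its values were seen. It ranged from 37.5 to 49.2 CPM in ES (median 38.0) and from 40.3 to 47.2 CPM in NES (median 44.5). Of the 6 ES libraries 5 lay below every NES library and ES3 above every one. The difference was -0.13 ± 0.09 (edgeR adjusted p = 0.534), and -0.20 without ES3. A joined locus of BCL2L13 and BID on the other strand, which could share its reads, gave -0.10 ± 0.15.

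BAD, which binds survival proteins when it is not phosphorylated, gave 0.25 ± 0.18 (0.16 without ES3), and BOK, a pore former known from the ovary, 0.06 ± 0.26. For the pore formers BAK1 and BAX the reads are divided between loci. The named locus of BAK1 covers 49.0% of the RefSeq gene with a mean of 79.5 counts and gave -0.19 ± 0.25. The joined locus of BAK1 and IP6K3, which covers all of it on the other strand, held 24.3 ± 3.06 CPM in the ES ovaries against 24.5 ± 1.31 in those of NES gilts (SD, n = 6 each). BAX shares a locus with NUCB1 and DHDH, which held 143 ± 17.9 CPM in the ES ovaries against 130 ± 6.21 in those of NES gilts (SD, n = 6 each), a difference of 0.14 ± 0.09 (edgeR adjusted p = 0.494).

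Of 5 listed survival genes of the BCL2 family only BCL2A1 had a tested locus of its name, and that locus lies outside the RefSeq gene, so its difference of -0.00 ± 0.16 may belong to another transcript. The locus that spans the RefSeq BCL2A1 gene had a mean of only 25.5 counts. BCL2L1, which encodes BCL-XL, had a named locus on the other strand with a mean of 0.58 counts. The joined locus that covers BCL2L1 held 60.2 to 157 CPM in ES (median 71.1), with the 157 CPM in ES3, and 47.4 to 71.0 CPM in NES (median 64.1). That gave 0.48 ± 0.22 (edgeR adjusted p = 0.308), and 0.21 without ES3.

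MCL1 is joined to ENSA, and that locus held 236 ± 49.9 CPM in the ES ovaries against 193 ± 19.6 in those of NES gilts (SD, n = 6 each), a difference of 0.29 ± 0.13 (edgeR adjusted p = 0.308). Of this locus the highest library was ES1, with 321 CPM, and without it the difference was 0.18. The RefSeq gene of BCL2 lies inside a locus named KDSR, and a second locus named KDSR covers 35.9% of it. The first held 236 ± 39.6 CPM in the ES ovaries against 255 ± 16.5 in those of NES gilts (SD, n = 6 each), a difference of -0.11 ± 0.11, and the second gave -0.26 ± 0.16 (edgeR adjusted p = 0.458). Neither value can be divided between BCL2 and KDSR. None of the tested loci was called, but for BCL2, BCL2L1 and MCL1 no value belongs to the gene alone. BCL2L2 had no locus of its name, and the tested BCL2A1 locus lies outside the gene. No survival gene was thus tested on its own, and whether their levels differ between the groups is not known.

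Of the 4 genes for death factors released from mitochondria, none was called and 2 (50%) had a positive difference, against 56.2% of all loci. The median of the 4 was 0.020, against 0.04 over all loci. AIFM1, a flavoprotein that moves to the nucleus in cell death, ranged from 9.02 to 14.9 CPM in ES (median 11.6) and from 9.17 to 10.8 CPM in NES (median 9.81). In ES, 4 of 6 libraries lay above every NES library and the other two below, and the difference was 0.21 ± 0.14 (edgeR adjusted p = 0.481), and 0.12 without ES6. CYCS, cytochrome c, ran from 6.38 to 19.1 CPM in ES (median 9.44) and from 8.18 to 20.8 CPM in NES (median 10.3). Its highest libraries were ES1 and NES1, and the difference was -0.12 ± 0.29 (edgeR adjusted p = 0.875).

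ENDOG, a mitochondrial nuclease, held 1.71 to 3.05 CPM in ES (median 2.14) and 1.35 to 3.60 CPM in NES (median 2.12), with a difference of 0.05 ± 0.24 (edgeR adjusted p = 0.945). DIABLO, which frees caspases from their inhibitors, gave -0.01 ± 0.15. XIAP, a direct inhibitor of caspases, held 112 to 156 CPM in ES (median 124) and 107 to 139 CPM in NES (median 120), and the ranges overlapped. Its difference was 0.09 ± 0.11 (edgeR adjusted p = 0.749). BIRC3, another inhibitor, stood in a joined locus that gave -0.03 ± 0.09.

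Of 5 genes of the p53 axis and stress, none was called and 4 (80%) had a positive difference, against 56.2% of all loci. The median of the 5 was 0.63, and 0.51 without ES3, against 0.04 and 0.021 over all loci. TP53INP1, a stress-induced gene that promotes cell death, held 124 CPM in ES1, a median of 214 and 304 CPM in ES3, against 97.7 CPM in NES1, a median of 149 and 191 CPM in NES3. Of the 6 ES libraries 4 exceeded every NES library and the other two lay within the NES range. The difference of 0.63 ± 0.22 had the smallest adjusted p of the 26 genes with a named locus (edgeR adjusted p = 0.199), and was 0.51 without ES3.

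GADD45B, a stress-induced regulator of growth arrest, ran from 7.58 CPM in ES5 over a median of 23.2 to 42.5 CPM in ES1, and from 10.3 to 19.8 CPM in NES with a median of 13.7. In the ES group 4 libraries lay above every NES library and ES5 below, and the difference was 0.70 ± 0.34 (edgeR adjusted p = 0.325), and 0.43 without ES1. GADD45B was at its highest in ES1, the library with the highest sum of steroid cell markers (3001 CPM, against 408 to 745 CPM in NES). Other libraries did not follow that order. ES4, with a sum of 302 CPM, held 28.8 CPM of GADD45B, and ES6, with a sum of 2845 CPM, held 22.8 CPM. The part of steroid cells in the GADD45B values was not tested. GADD45A, its relative, gave 0.17 ± 0.20, and 0.00 without ES3.

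PDCD4, which restrains translation, was the most abundant gene per length with a mean of 12.4 FPKM. Its ES values ran from 68.2 CPM in ES3 over a median of 149 to 627 CPM in ES4, while NES ran from 119 to 172 CPM with a median of 139. ES4 and ES1, with 276 CPM, lay above every NES library and ES3 below, so that the order of libraries differed from that of the receptors. The difference of 0.68 ± 0.43 (edgeR adjusted p = 0.459) was 0.08 without ES4. An unnamed locus on the other strand overlaps PDCD4.

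MDM2, a ubiquitin ligase, ranged from 24.4 to 44.1 CPM in ES (median 27.8) and from 29.1 to 34.0 CPM in NES (median 31.8). Of the 6 ES libraries 3 lay below every NES library and ES3 above. The difference was -0.07 ± 0.15 (edgeR adjusted p = 0.852), and -0.22 without ES3.

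**Figure D4:**
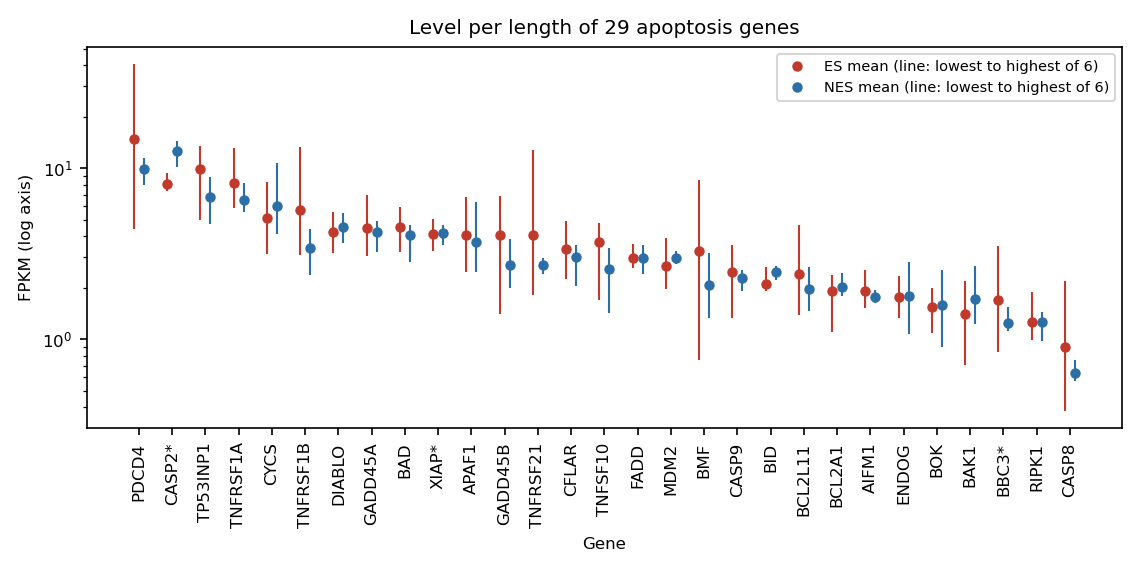
Level per length of the 29 genes in FPKM on a log axis, as the mean of each group (points) and its lowest and highest of 6 libraries (lines), ordered by the mean over all 12 libraries. PDCD4 has a mean of 12.4 FPKM, CASP2 10.3, TP53INP1 8.34, TNFRSF1A 7.35 and CYCS 5.54. Of the 29 genes CASP2 alone shows no overlap of its lines, but in CPM its groups overlap. The share of all loci without overlap in FPKM was not counted.

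A further 101 apoptosis and atresia genes were listed in 5 lists, of which 72 were tested. By edgeR 1 of the 72 was called higher in ES, CDKN1A, against 0.152% of all loci, and 1 lower, BIRC5, against 0.793%. DESeq2 called 8 of the 66 that it gave an adjusted p, and limma 2 of the 72, against 5.17% and 1.62% of all loci. The 72 had a median of 0.17, and 53 of them (73.6%) had a positive difference, against 56.2% of all loci. Without ES3 the median was 0.075 and 44 (61.1%) had a positive difference, against 53.5% of all loci.

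Among 21 tested genes of a list of other p53 targets CDKN1A rose by edgeR, against 0.152% of all loci called higher. DESeq2 called 3 of the 18 that it gave an adjusted p, against 5.17% of all loci. Of the 21 genes, 16 had a positive difference (76.2%, against 56.2% of all loci). Their median was 0.38, against 0.04 over all loci. CDKN1A encodes p21, an inhibitor of cell cycle kinases. It held 13.0 CPM in ES5, a median of 21.9 and 41.7 CPM in ES1, against 9.05 to 13.1 CPM in NES with a median of 9.93. For this gene 5 ES libraries lay above every NES library and ES5 just inside the NES range. The difference was 1.25 ± 0.27 (edgeR adjusted p = 0.0487), and 1.11 without ES3. Of 22 other fits 6 called CDKN1A, with adjusted p from 0.000648 to 0.126.

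TP53INP2, a relative of TP53INP1 with a part in autophagy, held 20.8 to 75.7 CPM in ES (median 31.3) and 12.1 to 19.4 CPM in NES (median 16.4). All 6 ES libraries lay above all NES libraries, and the difference was 1.31 ± 0.30 (edgeR adjusted p = 0.060, DESeq2 adjusted p = 0.00155). ES1 was the highest of 12 libraries for 9 of the 21 genes of this list (42.9%), against 13.5% of all loci. CCNG1, cyclin G1, chosen after its values were seen, held 1109 CPM in ES1, against 77.3 to 179 CPM in the other ES libraries and 76.7 to 128 CPM in NES. Its difference was 1.43 ± 0.61 (edgeR adjusted p = 0.268), and 0.19 without ES1.

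**Figure D5:**
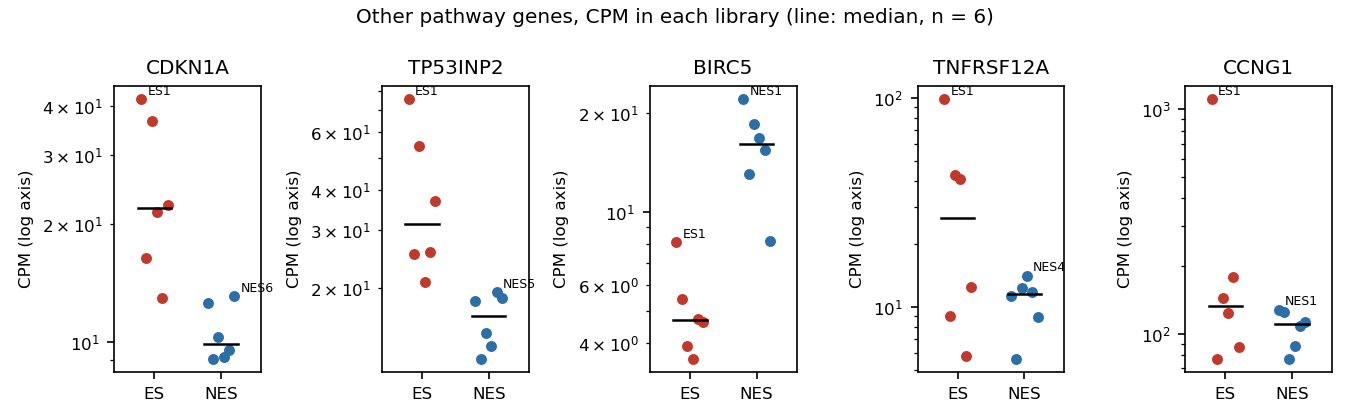
CPM of 5 further pathway genes in each library on log axes, with the line at the median of 6 libraries and the highest library of each group named. CDKN1A and TP53INP2 lie higher in ES, BIRC5 has 6 of 6 ES points below all NES points, and CCNG1 has 1 library, ES1, at 1109 CPM.

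Among 14 other BCL2 family genes and partners edgeR, DESeq2 and limma each called 1. By edgeR this was BIRC5, which fell, against 0.793% of all loci called lower. Over all loci DESeq2 called 5.17% and limma 1.62%. Of the 14 genes, 9 (64.3%) had a positive difference, against 56.2% of all loci, and the median was 0.069, against 0.04. BIRC5 encodes survivin, an inhibitor of apoptosis that dividing cells need at mitosis. It held 3.57 to 8.10 CPM in ES (median 4.69) and 8.16 to 22.0 CPM in NES (median 16.1), with all 6 ES libraries below all NES libraries. The difference was -1.62 ± 0.25 (edgeR adjusted p = 0.0337), and -1.56 without ES3. Of 22 other fits 12 called BIRC5. BIRC5 is also 1 of the 5 tested cell cycle markers, all of which were called lower, against 0.793% of all loci. The sums of these markers were 26.6 to 74.6 CPM in ES and 69.1 to 324 CPM in NES. TMBIM6, which protects cells from BAX, gave 0.49 ± 0.17 (edgeR adjusted p = 0.195), with 4 of 6 ES libraries above all NES libraries.

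Of 10 tested genes for other death receptors and adaptors all 10 had a positive difference, against 56.2% of all loci. Their median was 0.16, against 0.04 over all loci. EdgeR called 0 and DESeq2 1, TNFRSF12A, against 5.17% of all loci by DESeq2. TNFRSF12A, the receptor of TWEAK, ran from 5.82 CPM in ES5 over a median of 26.7 to 98.7 CPM in ES1, and from 5.61 to 14.1 CPM in NES with a median of 11.5. Of the 6 ES libraries 3 lay above every NES library. The difference was 1.71 ± 0.59 (edgeR adjusted p = 0.187, DESeq2 adjusted p = 0.0407), and 1.05 without ES1. LTBR, the lymphotoxin receptor, gave 0.41 ± 0.20 (edgeR adjusted p = 0.327). Its difference was 0.24 without ES3, its highest library, and 0.31 without ES1, the next highest.

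Of 7 other caspases and nucleases, with a median of 0.099, edgeR and limma called 0. DESeq2 called 0 of the 6 that it gave an adjusted p. Over all loci DESeq2 called 5.17% and limma 1.62%, and edgeR called 0.152% higher and 0.793% lower. DNASE2, a lysosomal nuclease that digests the DNA of engulfed cells, stood at 28.9 CPM in ES3, at 6.89 CPM or less in the other ES libraries, and at 4.06 to 8.40 CPM in NES. Its difference of 0.69 ± 0.43 (edgeR adjusted p = 0.461) became -0.04 without ES3. GSDMD, the pore former of pyroptosis, gave 0.34 ± 0.25, and 0.07 without ES3.

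Of the 20 atresia-linked ovarian genes edgeR called 0, limma 1, and DESeq2 3 of the 18 that it gave an adjusted p. Over all loci DESeq2 called 5.17% and limma 1.62%, and edgeR called 0.152% higher and 0.793% lower. The 20 genes had a median of 0.23, and -0.046 without ES3. Without ES3, edgeR called 1 of the 20, against 85 of all 20421 loci. FST, follistatin, which binds activin, held 5.78 to 39.4 CPM in ES (median 31.7) and 57.4 to 218 CPM in NES (median 101), with no overlap. The difference was -2.03 ± 0.44 (edgeR adjusted p = 0.0519), and -1.82 without ES3 (0.0491). Of 22 other fits 6 called FST, DESeq2 among them (adjusted p = 0.000246). FST is also 1 of the granulosa markers described above, whose median was -0.95. Among those markers INHA, CYP19A1 and INHBA had positive differences. PAPPA, the protease that frees IGF in large follicles, ran from 11.4 CPM in ES3 over a median of 54.7 to 419 CPM in ES1, and from 11.6 to 34.1 CPM in NES with a median of 17.3. Of the 6 ES libraries 5 lay above every NES library and ES3 below, and the difference was 2.62 ± 0.72 (edgeR adjusted p = 0.103, DESeq2 adjusted p = 0.00195), and 1.66 without ES1.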

How the data were processed

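Total RNA of 12 left ovaries (6 ES, 6 NES) was freed of ribosomal RNA, and strand-specific libraries were prepared from it, per the labels' protocols. Cutadapt, FastQC, HISAT2, TopHat and the build Sscrofa11.1 are named in the submitters' processing notes. Which program counted the reads, with which annotation and strand setting, is not given in the sources used here, so overlapping and antisense loci may share reads. The authors deposited raw counts and FPKM values per locus, per the file headers, and the deposited FPKM were scaled by the authors for length and library size.

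The members and the gene lists were chosen with earlier results of these data known. Tested loci had a mean FPKM of at least 0.5. The counts were tested with the quasi-likelihood test of edgeR, using TMM factors, without covariates and with Benjamini-Hochberg adjustment over 20421 loci, called under 0.05. The SE is the log2 difference divided by the square root of F. CPM use tested loci and TMM factors. Values per library were given for called members, the 3 smallest p-values of each role group and BCL2, BAX, BCL2L1, MCL1, FAS, CASP8, CASP9 and MDM2, and in each further list for called genes and the 2 smallest p-values. Gene spans came from RefSeq (Sscrofa11.1). No sequence is printed, and some genes counted in the further lists are not reported here by name. On counts simulated from these libraries, edgeR recovered 6, 18, 40 and 39 of 50 loci changed by 1.5, 2, 3 and 4-fold. It made 3 false calls among the loci left unchanged. The simulation gave both groups the same spread, whereas ES libraries spread more widely at 74.6% of loci. Its recovery and false calls may therefore not hold for these data. Alternatives were DESeq2, limma on log2(FPKM + 0.1, 0.5 or 1), median-of-ratios scaling, robust dispersion, other filters, a block for the title number, single libraries left out, and ES3 and ES6 left out together. The analysis ran in R 4.3.3 with DESeq2 1.42.0, limma 3.58.1 and edgeR 4.0.16, and in Python 3.11.15 with matplotlib 3.10.9, numpy 2.4.6 and pandas 2.3.3.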

Additional observations from a re-analysis of the deposited data

Results flagged for a closer look

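In 15 of 78 groups of 6 libraries (39 genes, 2 groups each), 1 library lay far from the nearest other by Dixon's criterion. About 1 in 20 groups would meet it if values were independent and normally distributed, which CPM need not be. The share over all loci was not counted, and the further genes among the 39 were picked by their p-values. Whether 15 of 78 is more than usual in these libraries is therefore not known. Of the 15 flagged groups 13 concern listed apoptosis genes and 8 concern ES3, a library that also has the highest macrophage marker levels. In ES3 the high values were 49.2 CPM for BID, 243 CPM for BMF, 126 CPM for BCL2L11, 176 CPM for TNFRSF1B, 60.2 CPM for TNFRSF21, 13.3 CPM for RIPK1, 10.1 CPM for BBC3 and 28.9 CPM for DNASE2. In ES6 CASP8 stood at 18.9 CPM, in ES4 PDCD4 at 627 CPM, and in ES1 CASP2 at 52.9 CPM and PAPPA at 419 CPM. In the NES group the distant values were 6.28 CPM for CASP8 in NES6, 216 CPM for APAF1 in NES3 and 20.8 CPM for CYCS in NES1.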

How the results depend on the processing

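Of 642 differences of the 29 genes under alternatives, other loci of the same gene included, 34 changed sign, in 10 genes, and no member but CASP2 was called under any alternative. Over all loci the calls higher and lower in ES were 461 and 594 by DESeq2, 18 and 304, 17 and 313, and 20 and 317 by limma with pseudocounts of 0.1, 0.5 and 1, 3 and 25 without a filter, 1 and 0 without ES3 and ES6, and 0 to 70 and 0 to 345 with each library left out. With the replicate number as a block there were 0 and 0 calls. No label says that the numbers mark litters, and same-numbered deviations correlated at -0.070 to 0.29, so whether they pair sisters is not known. There were 0 calls in both directions by edgeR without NES1, NES3, NES4, NES5, ES2, ES4 or ES6, while 2629 to 3625 loci had an unadjusted p under 0.05. With genes found by identifier included, 1 member was called lower. CASP2 lost its call at -0.55 without a filter (adjusted p = 0.0661), at -0.55 with the block (0.0920) and at -0.54 without ES3 and ES6 (0.123), and gave -0.63 to -0.51 with each library left out. The median of all loci was 0.043 by edgeR and -0.066, -0.051 and -0.041 by limma with rising pseudocount. Limma reversed RIPK1 (-0.027, -0.017 and -0.011), ENDOG (-0.0011, -0.0053 and -0.0072) and XIAP (-0.0086, -0.0072 and -0.0059). Without ES3 and ES6, CASP8 was -0.048, FADD -0.024, TNFRSF21 -0.11, RIPK1 -0.032 and DNASE2 -0.020. With each library left out, BCL2A1 ranged from -0.081 to 0.089, BOK -0.055 to 0.24, CYCS -0.36 to 0.11, DIABLO -0.10 to 0.059, DNASE2 -0.041 to 0.83, ENDOG -0.062 to 0.23, RIPK1 -0.067 to 0.15 and TNFRSF21 -0.13 to 0.82. The cause of these changes was not tested.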
